A study of Mus musculus with 4 samples.

Results

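Carbonic anhydrases were followed through single-cell RNA of mouse colonic organoid cultures. The genes were chosen by symbol: Car1, Car2, Car4, Car8, Car9, Car12 and Car13, which are 7 of the 30360 genes in the deposited gene table. All 7 had at least 1 UMI (unique molecular identifier, the tag of 1 captured transcript) in each of the 4 libraries. The cultures came from the distal colon of mice 16 weeks old per the labels and were harvested at passage 5, 7 days post-passage. They were wildtype (C57BL/6) or Tnfr2-/-, a whole-body deletion of Tnfrsf1b, which encodes TNF receptor 2, and were left untreated or given 20 ng/ml of TNF from day 1 to day 6. Each combination was 1 library, so no difference has a replicate check and no p-value is given. Series of 4 values run from wildtype without and with TNF to Tnfr2-/- without and with TNF.

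Carbonic anhydrases interconvert carbon dioxide and water with bicarbonate and a proton. In the colon they supply bicarbonate and protons to the exchangers of the surface epithelium, which absorb sodium chloride and secrete bicarbonate. Car1, Car2 and Car13 are cytosolic enzymes, Car4 is held on the outer cell surface by a lipid anchor, and Car9 and Car12 are transmembrane enzymes with their active site outside the cell. Car8 belongs to the family by sequence but lacks catalytic activity. Car9 is also a textbook target of the hypoxia-inducible factors.

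By GENCODE M21 on GRCm38, the 3 cytosolic members lie on chromosome 3 within 259 kb. Car13 spans 14641727 to 14663002 (plus strand), Car1 14766216 to 14808368 (minus strand) and Car2 14886273 to 14900770 (plus strand). Car4 lies on chromosome 11 from 84957786 to 84966044, Car12 on chromosome 9 from 66713686 to 66766845 and Car9 on chromosome 4 from 43506966 to 43513729, all on the plus strand. Car8 lies on chromosome 4 from 8143362 to 8239041 on the minus strand. Gm12454, an antisense gene, overlaps Car9.

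The 30 bases from 32 to 3 before the RefSeq start (GRCm38.p6, plus strand, start base counted as 0) are shown for the members with a promoter entry, 3 of the 7, because Car9 parted from the other hypoxia-response genes in the comparisons that follow. The capitals in the Car9 line mark the core of the hypoxia response element, ACGTG, read on the other strand.
Car9, chr4:43506994-43507023: tcctatttccgatgCACGTacagcccgtcc
Car4, chr11:84957722-84957751: aagagaggctccgccaggaggaggagccga
Car12, chr9:66713654-66713683: ccctcctgcctgatgacatcatgtttaggg
From 250 bases before to 50 after the start, ACGTG occurred on either strand 1 time at Car9 (bases -18 to -14), 1 time at Car4 (bases 2 to 6) and 0 times at Car12. It occurred in 19.6% of 32851 promoter windows of that length. The related core GCGTG occurred in 0 of the 3 and in 32.4% of all windows. A match describes these letters and is not a shown binding site.

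The libraries held 980 to 2589 cells and 44547639 to 87228093 UMIs, of which epithelial cells held 39776200 to 50648198. The deposited classes were 7 epithelial and 4 mesenchymal ones. Tnfrsf1b was read at 9.76, 14, 2.05 and 7.59 CPM (UMIs of a gene per 1000000 UMIs) over all cells, so it was lower in Tnfr2-/- within each treatment but not absent. In untreated Progenitor.2 it ran the other way, at 1.19 CPM in wildtype (2 UMIs) and 5.15 in Tnfr2-/- (51 UMIs). Which part was deleted was not known here, and 3′ tags outside it check nothing. The class composition differed widely: Absorptive cells made up 28.3%, 1.63%, 1.08% and 0.117% of the epithelial cells, Progenitor.1 48.4%, 28.8%, 63.2% and 11.1%, and Progenitor.2 5.50%, 23.5%, 22.8% and 83.4%. Levels are therefore given both over all epithelial cells and within classes, and a class with fewer than 20 cells in a library was not compared. Between libraries, 3 cell barcodes were shared (6 cells).

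Over all epithelial cells, the members spanned a wide range. Each UMI stands for 1 tagged transcript end, so levels were not divided by gene length, and all intervals are 95% and cover counting error only. In untreated wildtype epithelium the order was Car1 (3713 CPM), Car2 (766), Car4 (62.9), Car9 (54.4), Car13 (28.2), Car12 (1.53) and Car8 (0.834). In each of the other libraries Car1 and Car2 were again the pair at the top, at 346 to 632 CPM for Car1 and 436 to 1080 CPM for Car2. Car4 was the member whose place moved most, since it was read at 0.266 to 2.49 CPM in the other 3 libraries.

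**Figure D1:**
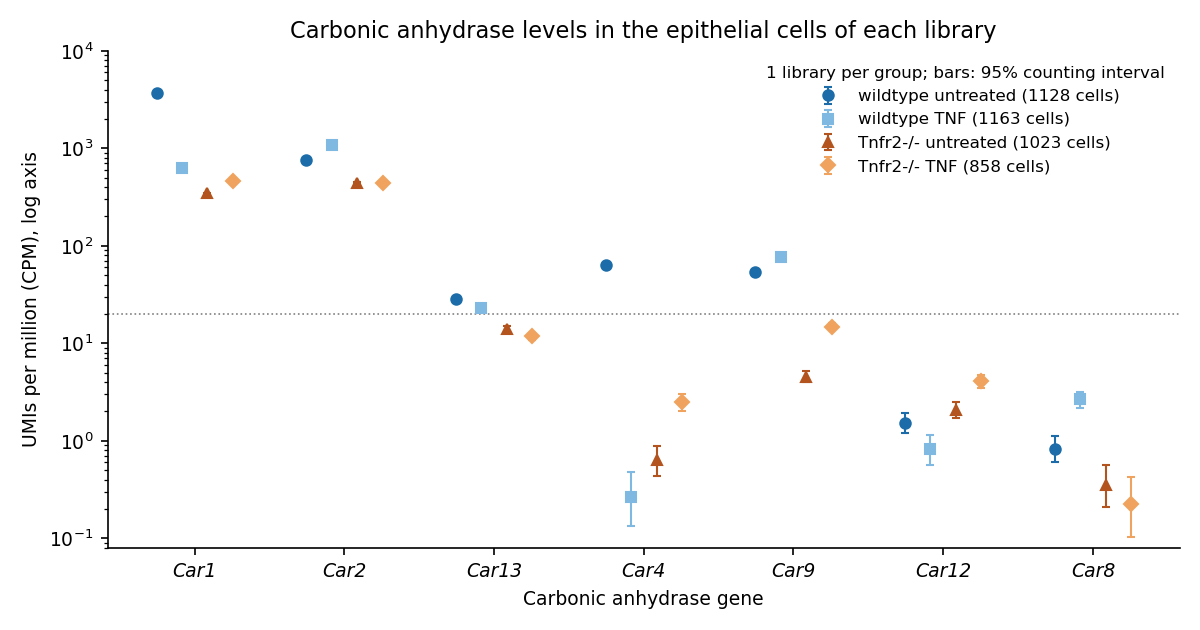
Level of each carbonic anhydrase in the epithelial cells of each library, in CPM on a log axis, with 1 library per group and 95% counting intervals. The dotted line is the 20 CPM minimum; Car1, Car2, Car4, Car9 and Car13 reached it in at least 1 library, and Car12 and Car8 in none.

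Genes were compared where they reached 20 CPM in at least 1 library of a pair, and were called at a 2-fold difference on the scale of log2(CPM + 1). Of 5 members compared between the untreated genotypes, 3 were lower in Tnfr2-/- epithelium (Car1, Car4 and Car9) and 0 were higher, where 3.59% of the 6021 genes compared were lower and 2.42% higher. With TNF, 2 of 4 were lower in Tnfr2-/- (Car2 and Car9) and 0 higher, against 6.37% and 5.04% of all genes. TNF in wildtype cultures went with 2 of 5 lower (Car1 and Car4) and 0 higher, against 1.08% and 2.54%. In Tnfr2-/- cultures 0 of 2 members passed with TNF in either direction, against 7.81% lower and 5.55% higher. The 4 comparisons share libraries and are not independent of one another.

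Car1 and Car9 were called again within classes. In Progenitor.1, 2 of 4 members were lower in untreated Tnfr2-/- (Car1 and Car9, against 1.10% of genes lower and 1.15% higher), and with TNF Car9 was lower and Car1 higher (2.04% and 1.29%). The higher Car1 call rests on few cells, since 108 of the 250 Car1 UMIs of Tnfr2-/- TNF were in 1 of 95 cells. TNF there went with lower Car1 in wildtype (0.615% lower, 1.84% higher) and in Tnfr2-/- (0.933% and 1.08%). The Tnfr2-/- call also rests on few cells, since 875 of the 4224 Car1 UMIs of Tnfr2-/- untreated were in 1 of 647 cells. The share of cells with a Car1 UMI was not lower with TNF in Tnfr2-/-, at 21.9% untreated and 24.2% with TNF (overlapping intervals). In wildtype it was 49.8% untreated and 26.0% with TNF. In Progenitor.2, 3 of 5 were lower in untreated Tnfr2-/- (Car1, Car4 and Car9, against 3.66% lower and 4.32% higher), and with TNF all 4 compared were (Car1, Car2, Car9 and Car13, against 4.93% and 2.99%). TNF in wildtype Progenitor.2 went with 2 of 5 higher (Car2 and Car9, against 4.28%) and 2 lower (Car1 and Car4, against 3.18%). The Car1 call there rests on few cells, since 958 of the 4727 untreated Car1 UMIs were in 1 of 62 cells. TNF in Tnfr2-/- Progenitor.2 went with 0 of 2 in either direction (0.844% higher, 1.14% lower).

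Because the Absorptive class was large in 1 library only, the epithelial sums were also formed without it, a choice made after the data were seen. Untreated Tnfr2-/- then had 2 of 4 members lower (Car1 and Car9, against 1.32% of genes lower and 2.09% higher), and Tnfr2-/- with TNF had Car2 and Car9 lower (6.31%, with 5.08% higher). TNF in wildtype went with Car2 and Car9 higher (3.98%) and 0 members lower (0.407%). In Tnfr2-/- 0 members passed with TNF (5.61% of genes higher, 8% lower).

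The label of these genes as epithelial held for 5 of them. Car1, Car2, Car4, Car9 and Car12 were higher in epithelium than in mesenchyme in each library. The intervals overlapped for Car4 in wildtype TNF and Tnfr2-/- untreated, and for Car12 in wildtype TNF. Car13 was higher in mesenchyme in each library, at 35.4, 40.3, 43.2 and 65.4 CPM, and Car8 was higher there in all but wildtype TNF. Genes that mark red cells, where Car1 and Car2 are also abundant, summed to at most 0.0596 CPM in epithelium, and the immune list to at most 0.314. The mesenchymal list summed to 4.32 to 21.2 CPM in epithelium, against 7896 to 11085 in mesenchyme.

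**Figure D2:**
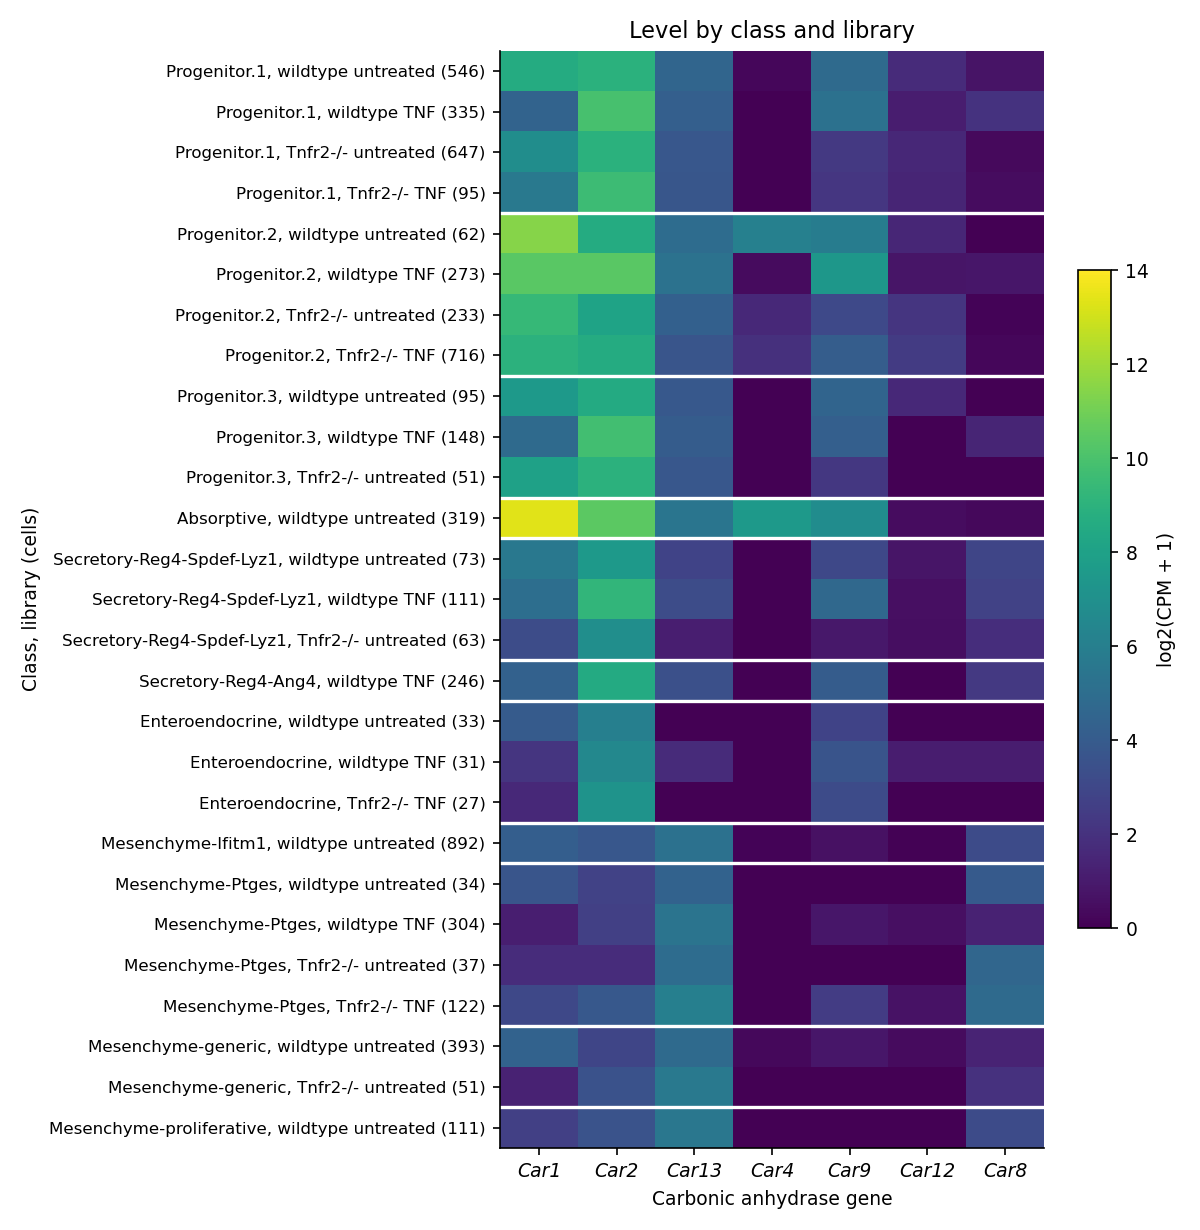
Level of each member in every class with at least 20 cells in a library, as log2(CPM + 1), with the cells in brackets. Car1 and Car4 peak in the untreated wildtype Absorptive class, Car9 in Progenitor.2 of wildtype TNF, and Car8 and Car13 in mesenchymal classes of Tnfr2-/- TNF.

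Car1, the abundant cytosolic isoform of surface colonocytes, read highest in the Absorptive class. That class held 10637 CPM (10587 to 10688) in untreated wildtype, where 92.7% of its cells had a Car1 UMI after each cell was thinned to 5000 UMIs (96.2% unthinned). Its median cell held 318 Car1 UMIs and its highest 5417. With 18.4% of the library's UMIs, these 319 cells held 88.4% of its Car1 UMIs. The few Absorptive cells of the other libraries read at a like level, 9462 CPM in 19 cells of wildtype TNF and 11084 in 11 cells of Tnfr2-/- untreated, with 22753 in the 1 cell of Tnfr2-/- TNF. They held 31.2%, 34.1% and 5.19% of the Car1 UMIs of those libraries. Progenitor.2 held more there, at 66.2%, 38.2% and 93.2%, with 22.6%, 18.6% and 75.7% of all UMIs.

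Over all epithelial cells Car1 was at 3713, 632, 346 and 462 CPM, so untreated wildtype stood far above the other 3. It was 10.7-fold lower in untreated Tnfr2-/- than in untreated wildtype (10.6 to 10.9), and 5.87-fold lower in wildtype TNF than in wildtype untreated (5.80 to 5.95). Without the Absorptive class the levels were 469, 444, 231 and 438 CPM, and the TNF difference in wildtype shrank from -2.55 to -0.08 on the log2(CPM + 1) scale. The genotype difference in untreated cultures shrank from -3.42 to -1.02 and was still a 2.03-fold difference.

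Within progenitors, Car1 was held by few cells. In Progenitor.1 it was at 395, 21.0, 115 and 48.8 CPM, with a median of 0 UMIs per cell in each library. The top 10% of Progenitor.1 cells held 93.6%, 84.9%, 98.1% and 94.4% of the Car1 UMIs. After thinning, 20.5%, 6.87%, 6.52% and 12.8% of the cells had a UMI, beside 6.28%, 1.01%, 1.16% and 5.00% of mesenchymal cells, which should lack it. Median depths were 42680 to 46629 UMIs in Progenitor.1 and 22642.5 to 48633 in mesenchyme. In untreated wildtype Progenitor.1, Mki67, a proliferation marker, was found in 30.4% of cells with a Car1 UMI and in 33.9% of cells without, with overlapping intervals.

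In Progenitor.2, where Mki67 was found in at most 3.68% of cells with or without Car1, Car1 was at 2815, 1365, 676 and 508 CPM. Here Tnfr2-/- was lower in both treatments (by 2.06 and 1.42 on the log2(CPM + 1) scale), and TNF was lower in both genotypes, past 2-fold in wildtype (-1.04) but not in Tnfr2-/- (-0.41). The untreated wildtype value rests on 62 cells with a median of 15574.5 UMIs, against 33685 to 39167 in the other libraries. Of its 4727 Car1 UMIs, 958 were in 1 cell, and the top 10% of cells held 68.8%. The median wildtype cell held 2 Car1 UMIs untreated and 3 with TNF. After thinning, 57.1% of wildtype cells untreated and 49.6% with TNF had a Car1 UMI, with overlapping intervals. In each library, Progenitor.2 cells with a Car1 UMI held Krt20, a keratin of mature surface cells, more often than cells without one. The shares were 75% and 50% in untreated wildtype (with overlapping intervals), 70.9% and 38.2% with TNF, 33.9% and 7.23% in Tnfr2-/- untreated, and 39.3% and 9.68% in Tnfr2-/- TNF. Enteroendocrine cells of Tnfr2-/- untreated had 478 Car1 UMIs, of which 477 were in 1 of 18 cells.

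Car2, the fast cytosolic isoform, was spread over the epithelium instead. In Progenitor.1 it was found in 77.1%, 91.3%, 77.5% and 88.3% of thinned cells, beside 2.33% to 6.67% of mesenchymal cells. The levels there were 493, 969, 494 and 776 CPM, so untreated cultures of the genotypes differed by less than their counting intervals and both TNF cultures stood higher. Its median cell held 16, 36, 20 and 31 Car2 UMIs. Absorptive cells of untreated wildtype held 1440 CPM and the 19 of wildtype TNF 4262. The secretory class marked by Reg4, Spdef and Lyz1 held less, at 192, 600 and 120 CPM in wildtype without and with TNF and in untreated Tnfr2-/-. Enteroendocrine cells held 64.0 and 92.0 CPM in wildtype without and with TNF and 144 in Tnfr2-/- TNF.

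TNF-treated cultures read higher for Car2 within classes in both genotypes, while the epithelial sum was higher in wildtype (766 and 1080 CPM) and not in Tnfr2-/-. In wildtype, TNF was higher by 0.97 in Progenitor.1, 1.83 in Progenitor.2, 1.2 in Progenitor.3 and 1.64 in the Reg4, Spdef and Lyz1 class, all as differences of log2(CPM + 1). In Tnfr2-/-, it was higher by 0.65 in Progenitor.1 and 0.50 in Progenitor.2, neither of which reached 2-fold. The Tnfr2-/- epithelial sums were 442 and 436 CPM, a ratio of 0.986 (0.967 to 1.01), while Progenitor.1, the class with more Car2, went from 63.2% to 11.1% of the epithelial cells. Progenitor.2 read 391, 1390, 274 and 389 CPM, so wildtype TNF stood apart and was 3.57-fold above Tnfr2-/- TNF.

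**Figure D3:**
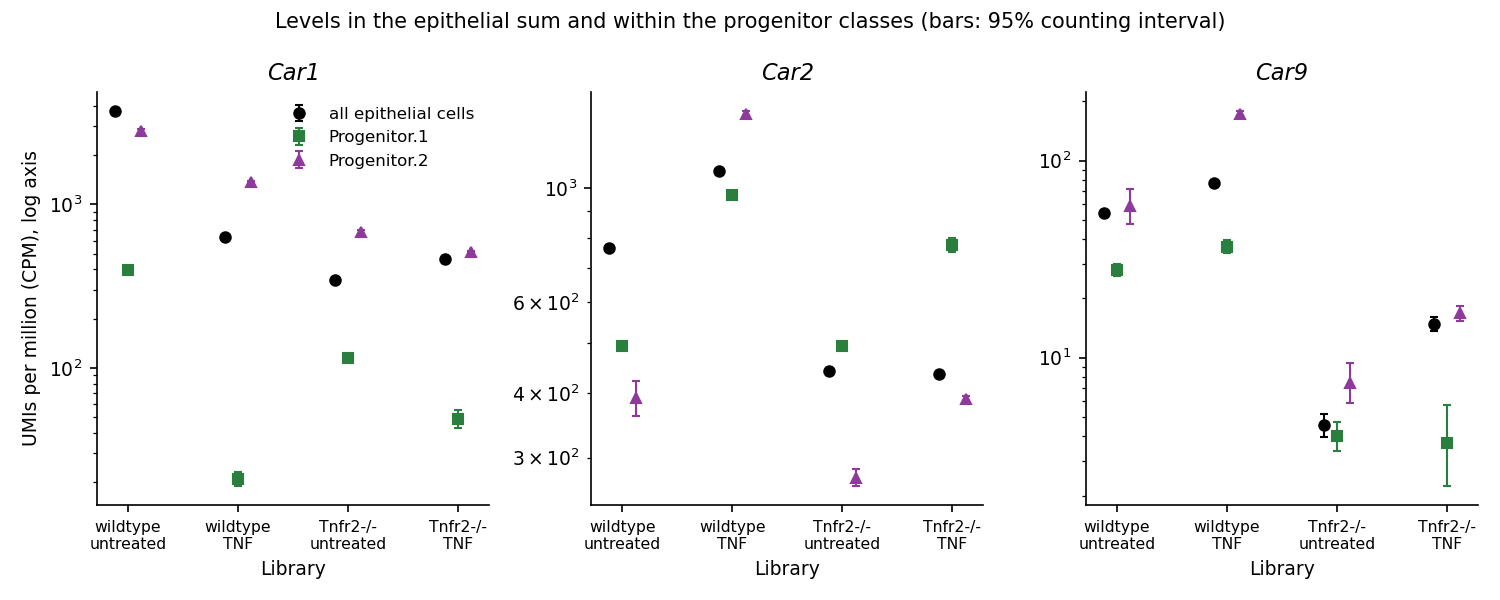
Car1, Car2 and Car9 in all epithelial cells, Progenitor.1 and Progenitor.2 of each library, in CPM on log axes that differ between panels, with 95% counting intervals. Car2 is higher with TNF in both classes and both genotypes while the Tnfr2-/- epithelial sums coincide, and Car9 is lower in Tnfr2-/- in every pair.

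Car13, the last of the cytosolic genes here, was low and differed between classes. Epithelium held 28.2, 22.8, 13.9 and 11.8 CPM, so both Tnfr2-/- libraries were below both wildtype ones. The genotype differences were -0.97 and -0.90 on the log2(CPM + 1) scale, and the TNF differences -0.29 and -0.22, so that no pair passed 2-fold. In Progenitor.2 the values were 30.4, 38.3, 18.9 and 11.9 CPM, and there the pair with TNF did pass, 3.22-fold lower in Tnfr2-/-. Untreated wildtype Absorptive cells held 43.3 CPM. The Reg4, Spdef and Lyz1 class held at most 8.37 CPM and enteroendocrine cells at most 2.30 in the libraries with enough cells. Of the mesenchymal classes, Mesenchyme-Ptges held 20.4, 40.3, 30.0 and 65.4 CPM. TNF was past 2-fold higher in Tnfr2-/- (2.18-fold, 1.45 to 3.42), where 5.08% of all genes compared were higher and 3.63% lower. In wildtype the untreated value came from 7 UMIs in 34 cells, and its interval (8.22 to 42.1) overlapped that with TNF.

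The cytosolic members on chromosome 3 did not follow one pattern. Between untreated genotypes in epithelium, Car1 differed by -3.42, Car2 by -0.79 and Car13 by -0.97 on the log2(CPM + 1) scale. The median of the 313 genes of chromosome 3 compared was 0.05, beside 0.11 for all genes. Over 27 sums of class and library, the Pearson correlation was 0.69 for Car1 and Car2, 0.23 for Car1 and Car13, and -0.22 for Car2 and Car13. These points share libraries and are given as a description.

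Car4, the lipid-anchored surface enzyme, was nearly confined to 1 class of 1 library. Absorptive cells of untreated wildtype held 3051 of its UMIs, 190 CPM (183 to 197), which were 94.3% of that library's Car4 UMIs. Of those cells 19.2% had a Car4 UMI after thinning and 26.6% before, while mesenchyme of the same library had it in 0.280% of cells before thinning. Progenitor.2 cells of untreated wildtype held 66.7 CPM (112 UMIs, in 11 of 62 cells with 40 in 1 of them), and the Progenitor.2 calls for Car4 rest on these few cells. Progenitor.2 of the other libraries held 0.315, 2.02 and 2.90 CPM. Progenitor.1 had 5 Car4 UMIs in untreated wildtype and 0 in the other 3 libraries.

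Over all epithelial cells Car4 was at 62.9, 0.266, 0.632 and 2.49 CPM, from 3168, 11, 32 and 99 UMIs. It was 99.6-fold lower in untreated Tnfr2-/- (70.4 to 146) and 237-fold lower in wildtype TNF (132 to 475) than in untreated wildtype. The Absorptive cells that could hold it numbered 19, 11 and 1 in the other libraries. Of these, 1 cell of wildtype TNF held 7 UMIs and 1 cell of Tnfr2-/- untreated held 12. A lower level per cell therefore cannot be told apart from fewer such cells in those libraries.

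Car4 marked a subset of the Absorptive class that was also rich in Car9. Of 61 thinned cells of untreated wildtype with a Car4 UMI, 72.1% had Car9 (59.2% to 82.9%), against 31.2% of the 256 without (25.6% to 37.3%). Aqp8, a water channel of surface colonocytes, was found in 88.5% and 30.9%, and Clca4a in 44.3% and 7.03%. Slc26a3, the chloride-bicarbonate exchanger, was found in 45.9% and 24.2%, and Ceacam20 in 65.6% and 24.2%. Shares of cells with a cytosolic isoform did not separate the groups: Car1 was found in 93.4% and 92.6%, Car2 in 90.2% and 96.9%, and Car13 in 24.6% and 19.9%, with overlapping intervals. For Car1 and Car2 these shares were near their ceiling and could hardly differ. Mean UMIs per thinned cell with and without Car4 were 55.9 and 51.2 for Car1, and 5.07 and 7.43 for Car2. Guca2a, a peptide hormone gene, was found in 6.56% and 6.25%.

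**Figure D4:**
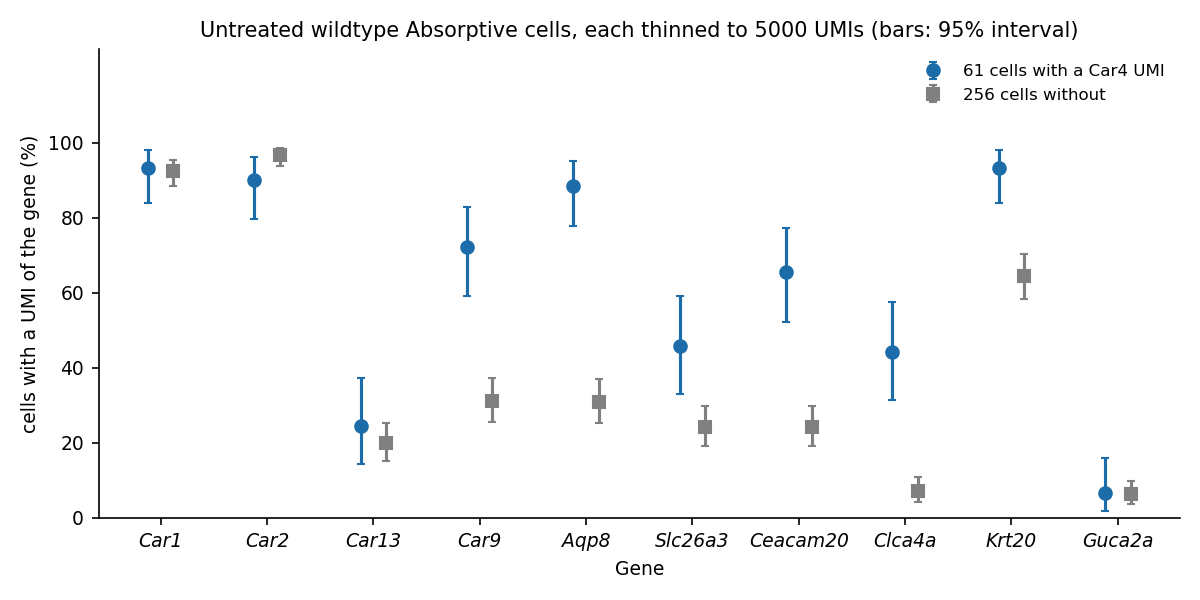
Share of untreated wildtype Absorptive cells with a UMI of each gene, for the 61 cells with a Car4 UMI and the 256 without, each cell thinned to 5000 UMIs, with 95% exact binomial intervals over cells of 1 library. Car9, Aqp8, Slc26a3, Ceacam20, Clca4a and Krt20 are found more often in cells with Car4, while Car1, Car2, Car13 and Guca2a overlap.

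Car9 read lower in Tnfr2-/- in each epithelial class with at least 20 cells in both libraries of a pair, with overlapping intervals in enteroendocrine cells. Epithelium held 54.4, 77.3, 4.54 and 14.9 CPM, so both wildtype libraries stood above both Tnfr2-/- ones. Tnfr2-/- was 12-fold lower untreated (10.5 to 13.8) and 5.20-fold lower with TNF (4.76 to 5.69). The share of thinned cells with Car9 was 20.6%, 26.8%, 2.42% and 6.38%, beside at most 0.833% of mesenchymal cells. Gm12454, its antisense neighbour, read 4.47, 3.31, 1.18 and 1.11 CPM. The sources used here do not say whether counting used strand, and without it the reads of these genes cannot be told apart.

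The genotype difference in Car9 was also present within the progenitor classes. Progenitor.1 held 27.8, 36.6, 4.0 and 3.71 CPM, and Tnfr2-/- was 6.95-fold lower untreated and 9.87-fold lower with TNF. Progenitor.2 held 59.0, 172, 7.47 and 16.8 CPM, and Tnfr2-/- was 7.90-fold lower and 10.2-fold lower. In Progenitor.1, 1.10% of all genes were 2-fold lower in the untreated pair and 2.04% with TNF, and in Progenitor.2 3.66% and 4.93%. Progenitor.3 (21.8 CPM in untreated wildtype and 3.77 in untreated Tnfr2-/-) and the Reg4, Spdef and Lyz1 class (7.05 and 0.836) lay the same way. Each of these Tnfr2-/- values came from 2 UMIs.

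Car9 was higher with TNF where it was compared in Progenitor.2. The difference there was 1.52 in wildtype and 1.07 in Tnfr2-/- on the log2(CPM + 1) scale, the latter between 2 values under 20 CPM. In Progenitor.1 it was 0.38 and -0.09, the latter with overlapping intervals. In Progenitor.2 of wildtype TNF, 55.2% of thinned cells held a Car9 UMI, against 7.04% with TNF in Tnfr2-/-.

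The hypoxia-response genes went another way between genotypes. This list of 12 genes does not contain Car9. With TNF, 10 of 12 were 2-fold higher in Tnfr2-/- epithelium, where Car9 was lower, against 5.04% of all genes. The median difference of the list was 1.33, beside -0.10 over all genes. Within classes the count of list genes was mostly smaller. With TNF, 1 of 12 was higher in Progenitor.2 (median 0.62, 2.99% of all genes) and 1 of 9 in Progenitor.1 (median 0.60, 1.29% of all genes). Untreated, 0 of 7 passed in Progenitor.1 (median -0.08), where 1.15% of all genes were higher. In Progenitor.2, 9 of 12 were higher (median 1.69, 4.32% of all genes), against the 62 shallower cells of untreated wildtype. In each of these pairs Car9 was lower in Tnfr2-/-. With TNF against untreated, 4 of 11 were higher in wildtype epithelium and 12 of 12 in Tnfr2-/-, against 2.54% and 5.55% of all genes. The medians were 0.75 and 1.91. Between untreated genotypes 0 of 10 passed in epithelium in either direction.

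The hypoxia-response genes named next were picked by the size of their differences in these data, so they add no support of their own. Their epithelial sums also mix classes of differing shares. Between genotypes with TNF, the list gene that passed was Hilpda in Progenitor.2 and Ndrg1 in Progenitor.1. Ndrg1, a stress-response gene, was at 43.0, 151, 67.2 and 500 CPM in epithelium. Egln3, an oxygen-sensing prolyl hydroxylase, was at 95.3, 221, 115 and 573 CPM. Bnip3, a mitophagy receptor, was at 69.6, 159, 92.5 and 492 CPM, and Vegfa, the vascular growth factor, at 41.7, 87.9, 68.7 and 197 CPM. All were highest in Tnfr2-/- TNF, where Car9 was at 14.9 CPM.

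**Figure D5:**
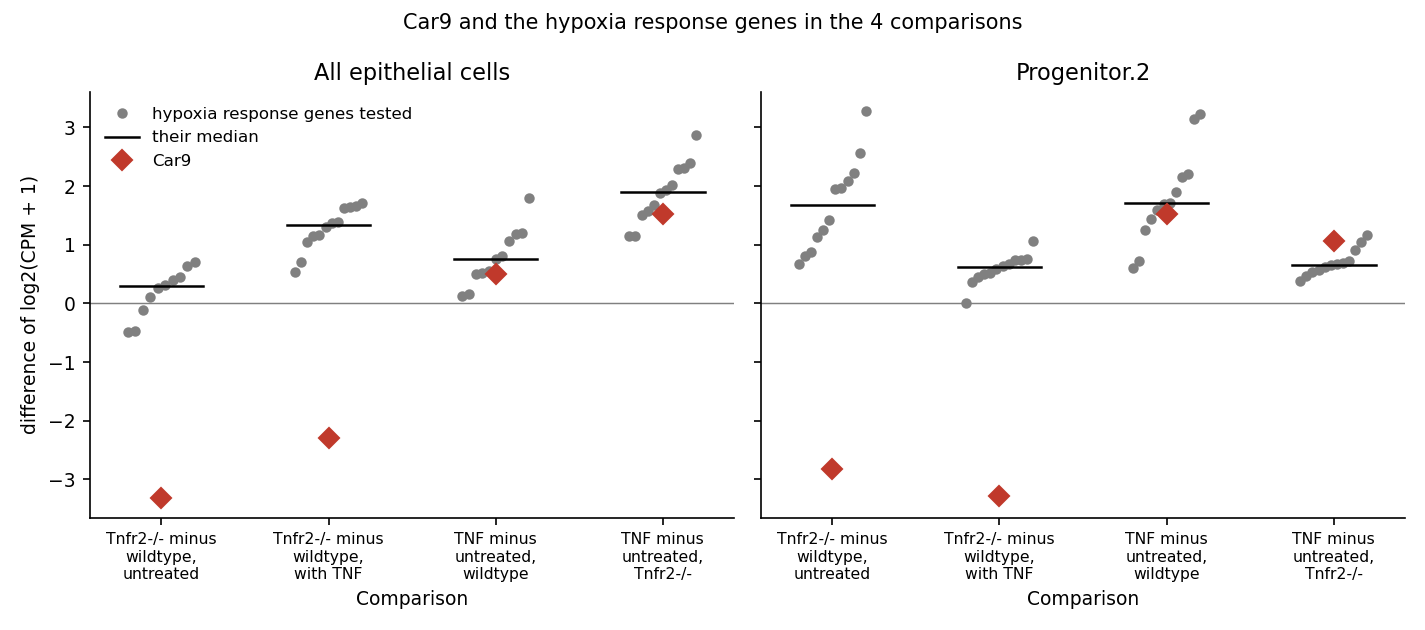
Difference of log2(CPM + 1) for Car9 (diamonds) and for the hypoxia-response genes that reached 20 CPM in the pair (grey points, with their median as a line) in the 4 comparisons. Car9 lies below every gene of the list in both genotype comparisons and within the range of the list in both TNF comparisons.

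Within cells, some hypoxia-response genes were found more often beside Car9 in wildtype, and others not. The 5 looked at were Egln3, Bnip3, Ndrg1, Vegfa and Slc2a1, a glucose transporter. Of Progenitor.2 cells of wildtype TNF, those with a Car9 UMI held Egln3 in 81.2% and Bnip3 in 71.8%, and those without in 62.8% and 54.5%. The intervals of the other 3 overlapped there, at 65.8% and 57.0% for Ndrg1, 58.4% and 48.8% for Slc2a1 and 47.7% and 43.8% for Vegfa, and in untreated wildtype Progenitor.2 (18 cells with Car9) those of all 5 did. In untreated wildtype Absorptive cells, the shares were 61.3% and 41.5% for Egln3 and 54.0% and 30.1% for Bnip3, with Slc2a1 and Ndrg1 also apart and Vegfa not. In Progenitor.1, Egln3 and Bnip3 were apart in untreated wildtype, and Egln3 and Ndrg1 in wildtype TNF, with the other 3 overlapping in each. In Progenitor.2 of Tnfr2-/- TNF, the 50 cells with a Car9 UMI and the 660 without had overlapping intervals, with Egln3 in 86.0% and 84.2% and Bnip3 in 88.0% and 83.6%. The pairing was not particular to the list. In Progenitor.2 of wildtype TNF, cells with a Car9 UMI also held Car1 (61.1% and 35.5% without), Car2 (88.6% and 67.8%) and Krt20 (62.4% and 44.6%) more often. Mki67 overlapped there, at 2.01% and 2.48%. In untreated wildtype Absorptive cells Krt20 was apart too (79.8% and 63.7%), while Car1 and Car2 overlapped. The difference between the genotypes in the pairing of Car9 with list genes was not tested.

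Car12, the other transmembrane enzyme, was under 20 CPM in every class. Epithelium held 1.53, 0.822, 2.09 and 4.07 CPM from 77, 34, 106 and 162 UMIs, so Tnfr2-/- TNF was highest. With TNF, Tnfr2-/- was 4.95-fold above wildtype (3.41 to 7.40), the opposite order to Car9. Untreated, the intervals of the genotypes overlapped. The untreated wildtype Absorptive class, where Car1 and Car4 peaked, held 0.374 CPM.

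Car8, the non-catalytic member, read higher in mesenchyme than in epithelium in every library but wildtype TNF. Mesenchyme held 6.47, 1.56, 11 and 28.1 CPM, and epithelium 0.834, 2.66, 0.355 and 0.226. With TNF, Tnfr2-/- mesenchyme stood 18.0-fold above wildtype (11.5 to 29.3). Both were almost wholly Mesenchyme-Ptges cells, which held 1.57 and 28.1 CPM, where 6.13% of all genes compared were higher and 8.52% lower in Tnfr2-/-. The other pairs of Mesenchyme-Ptges rest on 34 or 37 untreated cells, and there 0 members passed between untreated genotypes or with TNF in wildtype, although 10.7% and 13.4% of genes were higher and 14% and 11% lower. In that class 10.8% of Tnfr2-/- TNF cells had a Car8 UMI after thinning and 45.9% before. Of the wildtype epithelial classes with enough cells, the Reg4, Spdef and Lyz1 class held most, at 6.69 CPM untreated and 5.73 with TNF. Wildtype mesenchyme held 6.47 and 1.56.

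Of the 9 other carbonic anhydrase genes in the table, only Car3, a cytosolic isoform, reached 20 CPM in a class with enough cells. It was at 36.0 CPM (33.5 to 38.6) in Mesenchyme-Ifitm1 of untreated wildtype. The highest level of the other 8 ran from 0.0272 CPM for Car14 to 9.53 for Car5b, the mitochondrial isoform.

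The transporters that carry acid and bicarbonate with these enzymes differed in both directions. Of 18 genes on this list, 9 were compared between untreated genotypes, and 3 were lower in Tnfr2-/- (Slc26a3, Cftr and Atp12a) and 0 higher, with a median of -0.11. Of all genes compared, 3.59% were lower and 2.42% higher. Atp12a, the colonic proton pump, was at 159, 59.5, 27.9 and 19.7 CPM, and Cftr, the chloride and bicarbonate channel, at 43.9, 41.7, 18.5 and 6.39 CPM. Slc4a4, a sodium-bicarbonate cotransporter, ran the other way, at 4.19, 23.2, 18.4 and 84.5 CPM, as did Slc16a3, a lactate exporter, at 17.3, 53.9, 24.1 and 152 CPM. Both were lowest in untreated wildtype and highest in Tnfr2-/- TNF. With TNF, 3 of 8 were higher and 3 lower in Tnfr2-/-, against 5.04% and 6.37% of all genes. With TNF against untreated, 3 of 9 were higher and 2 lower in wildtype (2.54% and 1.08% of all genes). In Tnfr2-/-, 2 of 8 were higher and 0 lower (5.55% and 7.81%).

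Genes of absorptive colonocytes paralleled Car1 and Car4 in the untreated pair. All 8 compared were lower in untreated Tnfr2-/- epithelium, against 3.59% of all genes. Their median was -3.14, beside 0.11 over all genes. Absorptive cells made up 28.3% of epithelial cells in untreated wildtype and 1.08% in untreated Tnfr2-/-. Aqp8 was at 165, 25.3, 1.52 and 3.62 CPM, Krt20 at 166, 120, 18.5 and 47.9 CPM, and Lypd8, an antibacterial surface protein, at 5620, 2470, 675 and 904 CPM. With TNF, 4 of 8 were lower and 0 higher in Tnfr2-/-, against 6.37% and 5.04% of all genes. In wildtype, TNF went with 5 of 9 lower and 1 higher (1.08% and 2.54% of all genes). In Tnfr2-/- it went with 4 of 6 higher and 0 lower (5.55% and 7.81%). Within Progenitor.2, 6 of 9 were lower in Tnfr2-/- untreated (3.66% of all genes) and 7 of 10 with TNF (4.93%).

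The genes most like each member over the 27 sums differed from member to member. By Pearson correlation of log2(CPM + 1) among 10113 genes, Car1 was closest to Cyp2c55 (0.94) and Ces2c (0.93), Car2 to Vsig1 (0.98) and Tinag (0.97), and Car4 to Slc7a9 (0.92) and Tmigd1 (0.90), followed by Cyp4f14 (0.89) and Aqp8 (0.88). Car9 was closest to Sult1b1 and Tm4sf20 (0.93 each), Car13 to Arpc1b (0.89) and Car8 to Gstm2 (0.81). Among the members, the closest pair was Car2 and Car9 (0.83) and the farthest Car2 and Car8 (-0.61). Classes of 1 library share its depth and handling, so these values describe the sums and carry no p.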

How the data were processed

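Per the labels and the study's methods, cells were dissociated, depleted of apoptotic cells and made into 10x Chromium 3′ libraries. The submitters' notes name Cell Ranger 5.0.0 and mm10. The authors deposited UMI counts per gene and cell, as whole numbers, and their Leiden classes from monocle3 were used as given. The study's methods name filters on cells under 100 UMIs, mesenchymal clusters and epithelial-mesenchymal doublets, but the deposited cells include mesenchymal ones, so doublets may remain as well. The deposited size factor (a score) and 2 plotting coordinates were not used. Classes came from clustering the same counts, so differences between classes are descriptions.

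Here UMIs were summed per class and library and scaled to CPM, with exact Poisson intervals, and shares of cells carry Clopper-Pearson intervals (95%). Cells were thinned to 5000 UMIs, which left out 405 of 6155 cells, and 35 cells without a class entered no class. Genes reaching 20 CPM in at least 1 library of a pair were compared, with a pseudocount of 1 CPM and a 2-fold threshold, across all such genes. With 1 library per group no test was made. Scrublet in scanpy 1.11.5 called 47 doublets (0.764%), 25 of them without a class, and all were kept. Ensembl identifiers matched GENCODE M21 for 30240 genes and missed 120. Alternatives used edgeR 4.0.16 (TMM) and DESeq2 1.42.0 (size factors). The counting was run on simulated Poisson counts with known changes put in. Those counts hold no spread between cells, classes or cultures, so the run cannot check the effect of these. The members, lists, markers and thresholds were chosen with earlier results of these data known. Up to 4 genes per list were named by the larger of the smaller differences of both pairs, and cells with a Car1, Car4 or Car9 UMI were set against the rest for a few member, list and proliferation genes.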

Additional observations from a re-analysis of the deposited data

Results flagged for a closer look

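Some members differed in opposite directions in the pairs of a comparison, in epithelial sums of log2(CPM + 1). None of these differences between pairs was tested, since each group was 1 library. Car1 with TNF differed by -2.55 in wildtype and by 0.41 in Tnfr2-/-. Car4 differed between genotypes by -5.29 untreated and by 1.46 with TNF, and with TNF by -5.66 in wildtype and by 1.10 in Tnfr2-/-. Car12 with TNF differed by -0.47 in wildtype and by 0.71 in Tnfr2-/-. For Car4 and Car12, at least 1 of the opposed pairs lay under 20 CPM in both libraries.

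The 35 cells without a class, which entered no comparison, also held carbonic anhydrase UMIs. The 31 of untreated wildtype held Car1 at 2748 CPM, Car2 at 586, Car4 at 31.0, Car8 at 5.72, Car9 at 34.3 and Car13 at 26.2. The 4 of untreated Tnfr2-/- held Car1 at 17 CPM and Car2 at 445. Of the 35 cells, 25 were called as doublets, and the part of that in these levels was not tested.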

How the results depend on the processing

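The number of members called in each direction in the 4 epithelial comparisons stayed the same under other pseudocounts (0.1 and 10 CPM), scaling by TMM or by DESeq2's size factors, means over cells, cells of at least 2000 UMIs and called doublets left out. With no minimum level, 2 members were higher in Tnfr2-/- with TNF (Car4 and Car12) and 2 were higher with TNF in Tnfr2-/- (Car4 and Car9), in place of 0. With Progenitor.1 and Progenitor.2 weighted equally, 4 were lower in Tnfr2-/- with TNF (Car1, Car2, Car9 and Car13) in place of 2, and 2 were higher with TNF in wildtype (Car2 and Car9) in place of 0. The shares of all genes called with no minimum or with equal weights are not given here, so these counts have no background beside them. Without the Absorptive class, an alternative chosen after seeing the data, 2 were higher with TNF in wildtype (Car2 and Car9) and 0 lower. Values that changed sign were Car13 with TNF in wildtype, to 0.0765 under equal weights and 0.0786 without Absorptive cells, and Car1 with TNF in Tnfr2-/-, to -0.50 under equal weights. These last alternatives change which cells enter the sum. The median of all genes lay between -0.12 and 0.11 in the 4 comparisons and between -0.06 and 0.08 with TMM factors. No paired analysis was possible because each group had 1 library, and for the same reason no replicate could be left out. The counting intervals do not cover the spread between cultures or mice, levels under 20 CPM were not called, and classes of few cells limit what the Absorptive comparisons can show.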
